A study of Mus musculus with 18 samples.

Results

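Control cones of postnatal day (P) 35 C57BL/6J mice were compared with control cones of P21 BALB/c mice by RNA-seq. All 3 samples titled P35 C57BL/6J control cones and all 6 titled P21 BALB/c control cones were taken, 9 of the 18 samples of the series, and nothing measured entered the choice. The labels give BALB/c as albino wild type and C57BL/6J as pigmented wild type. Every eye had received an AAV vector at P0. In the control groups it carried only AAV8-SynP136-H2BGFP, a nuclear green fluorescent protein under a promoter active in cones, by which the cells were sorted after papain dissociation. The other 9 samples, 6 BALB/c and 3 C57BL/6J of the same days, also received the Txnip vector, and they serve here only as a check of direction. Strain, age and sequencing run went together, so that their parts in any difference cannot be told apart, and the labels do not say which retinas shared a mouse, so that p-values measure the spread between these libraries.

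Cones are the photoreceptors of daylight and colour vision. Light absorbed by an opsin activates a transducin and a phosphodiesterase (PDE6), cyclic GMP falls and a cation channel closes; kinases, arrestins and a guanylyl cyclase then restore the dark state. Photoreceptors also consume much glucose by aerobic glycolysis. Most photoreceptors of the mouse retina are rods and few are cones, and sorted cones can carry RNA of neighbouring cells.

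Total counts ranged from 1723214 to 5172156 in the BALB/c libraries and from 2437910 to 3605375 in the C57BL/6J libraries. The share on the ribosomal RNA locus of chromosome 17 ranged from 6.10% to 15.9% over BALB/c libraries, and C57BL/6J replicates 1 to 3 had 3.31%, 27.8% and 6.49%. Between 20014 and 29629 genes had a count in BALB/c libraries, the most in replicates 4 and 5 (29629 and 29401), and 20688 to 24000 in C57BL/6J. Levels below are CPM, the count of a gene relative to its library's total, scaled by the trimmed mean of M values of edgeR. The 10 cone markers summed to between 50145 and 61559 CPM in BALB/c and to 5.966e+04, 61054 and 95688 CPM in C57BL/6J, and all 10 were detected in both groups, as the label of cones requires. In these sorted bulk samples, fewer cells of a type and less RNA per cell cannot be told apart.

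Of 13253 genes tested, 2189 (16.5%) passed an adjusted p of 0.05 by the quasi-likelihood F test of edgeR, adjusted by the Benjamini-Hochberg method over these genes, and every adjusted p below is from that fit. Of these, 980 (7.39% of the genes tested) were higher and 1209 (9.12%) lower in C57BL/6J. The lower genes moved further: 801 of them and 397 of the higher ones changed by more than 1 on the log2 scale, and the median log2 difference was -1.49 among the lower and 0.88 among the higher genes, against 0.00 over all genes tested. The CPM values of the groups did not overlap for 1919 of the 2189 called genes, and for 2580 (19.5%) of all genes tested. Set beside these background shares, the higher calls included 10 of 22 genes of cone phototransduction and 14 of 27 gene records of glycolysis. The lower calls included 18 of 46 records of the stress responses and 18 of 46 genes of neuronal differentiation (bar chart of called members by list). In all, 48 lists were looked at. They were chosen with earlier results of these data known, so the shares describe the lists and test nothing. Every list count below stands beside the same 7.39% higher and 9.12% lower.

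**Figure D1:**
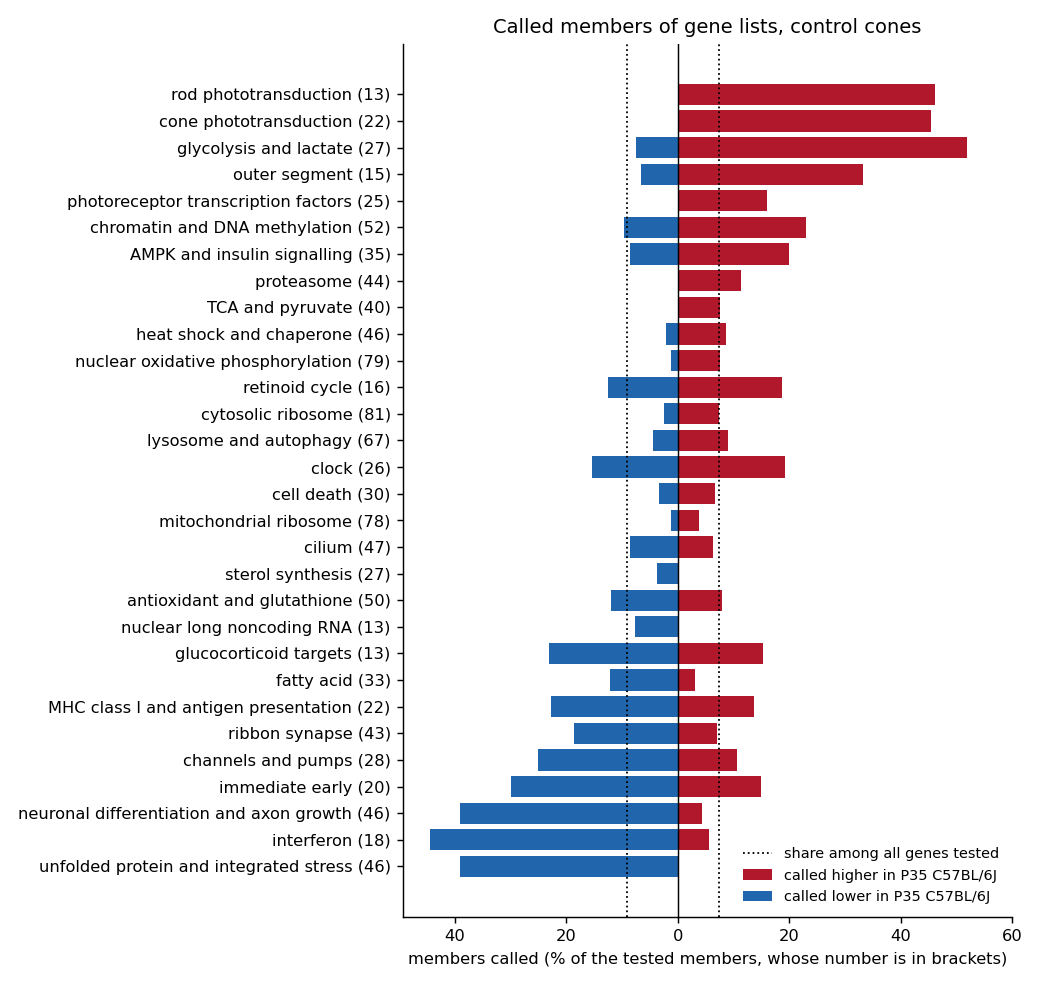
Share of the tested members of each gene list that was called at an adjusted p under 0.05, higher (red, to the right) or lower (blue, to the left) in P35 C57BL/6J control cones than in P21 BALB/c control cones, for lists with 10 or more tested members. Dotted lines mark the shares among all 13253 genes tested, 7.39% higher and 9.12% lower; 10 of 22 cone phototransduction genes were called higher and 18 of 46 stress genes lower.

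In the cone phototransduction cascade, 10 of 22 members were called higher in C57BL/6J and 0 lower, with a median log2 difference of 0.43. The largest change was in Pde6c (chr19:38132781-38183958, GRCm38), the catalytic subunit of the cone phosphodiesterase. Its level was 2117, 2644 and 2705 CPM in the C57BL/6J libraries, against a lowest, median and highest of 326, 413 and 454 CPM in BALB/c (log2 difference 2.64 ± 0.13 SE, adjusted p = 5.75e-08). The groups lay far apart, with the lowest C57BL/6J library well above the highest BALB/c one. Pde6h, the inhibitory subunit of the same enzyme, was at 4305, 4496 and 6621 CPM against 3674, 4217 and 4372 CPM and was not called (log2 difference 0.31 ± 0.15 SE, adjusted p = 0.163). Both subunits belong to one enzyme, and the test called the difference of the catalytic one alone.

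Opn1mw, the medium-wavelength opsin, was at 5717, 8175 and 8552 CPM in C57BL/6J and 2956, 3269 and 3432 CPM in BALB/c (log2 difference 1.21 ± 0.14 SE, adjusted p = 4.99e-05), without overlap. Opn1sw, the short-wavelength opsin, was at 28114, 23096 and 50036 CPM against 25251, 32649 and 37823 CPM, with 1 C57BL/6J library below, 1 within and 1 above the BALB/c range (log2 difference 0.08 ± 0.21 SE, adjusted p = 0.827). Of the transducin subunits, Gnat2 (0.47 ± 0.14) and Gngt2 (0.56 ± 0.15) were called higher on the log2 scale, and Gnb3 was not (5121, 5747 and 6403 CPM against 5257, 5693 and 6217 CPM). The channel subunits Cnga3 and Cngb3 were not called (log2 differences 0.17 and 0.10), whereas Slc24a2, the cone sodium, calcium and potassium exchanger, rose by 1.04.

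Of 7 shutoff genes 4 were called higher, and of 5 genes of the cyclase 1. Arr3, the cone arrestin that quenches the opsin, was at 7265, 8772 and 10915 CPM against 2938, 5067 and 5211 CPM (log2 difference 0.97 ± 0.18 SE, adjusted p = 0.00259). Pdc, which binds transducin beta and gamma subunits, was at 1665, 1425 and 1849 CPM against 706, 913 and 1005 CPM (log2 difference 0.88 ± 0.13 SE, adjusted p = 0.00065), and the opsin kinase Grk1 rose by 0.66. The C57BL/6J libraries were above all BALB/c libraries for each of these 3 genes. Guca1b, an activator of guanylyl cyclase, was at 768, 507 and 759 CPM against 266, 322 and 334 CPM and rose by 1.13 on the log2 scale, while the cyclase Gucy2e did not pass (log2 difference 0.39 ± 0.14 SE, adjusted p = 0.0749). Leaving out each library in turn left 8 to 10 members of the list called higher, and 1 was called lower without C57BL/6J replicate 2.

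**Figure D2:**
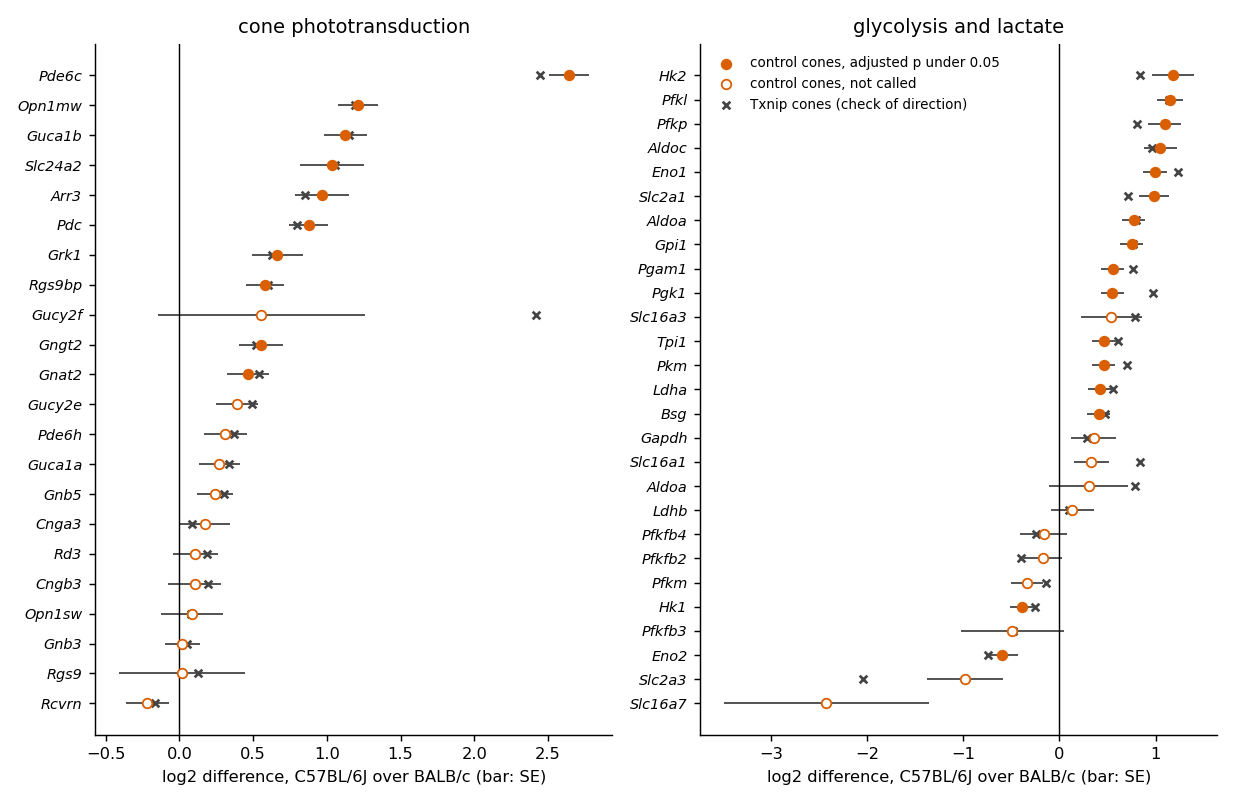
Log2 difference (C57BL/6J over BALB/c) of every tested member of the cone phototransduction list (left) and the glycolysis and lactate list (right) in control cones, with the SE as bars; filled points passed an adjusted p of 0.05 and open points did not. Crosses give the same difference between the Txnip libraries of the same strains. Pde6c stands apart at 2.64, and 14 of 27 glycolysis records were called higher against 2 lower.

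Outer segment genes followed with smaller changes, 5 of 15 called higher and 1 lower, beside 7.39% and 9.12% of all genes tested. Prph2, the disc rim protein peripherin, was at 2695, 2753 and 2521 CPM against 1863, 2001 and 2194 CPM (log2 difference 0.40 ± 0.11 SE, adjusted p = 0.0265). Impg1, a proteoglycan of the matrix around photoreceptors, rose by 0.97, and the disc flippase Abca4 and the axonemal Rp1l1 rose by 0.45 and 0.70 on the log2 scale. Tmem30a, a subunit of lipid flippases, fell (log2 difference -1.35 ± 0.31 SE, adjusted p = 0.00929), but in the Txnip libraries its difference was 0.22. Among 25 transcription factors of photoreceptors, 4 were called higher and 0 lower. These were Crx, the cone and rod homeobox factor (0.44 ± 0.13), Six6 (0.49 ± 0.15), Mef2d (0.54 ± 0.14) and Mef2c (1.02 ± 0.29). For the outer segment, the counts were 2 called higher without BALB/c replicate 4, 3 called higher without BALB/c replicate 3 or 6 or C57BL/6J replicate 3 and 2 called lower without C57BL/6J replicate 2. For the transcription factors, the counts were 1 called higher without BALB/c replicate 3 or C57BL/6J replicate 3, 2 called higher without BALB/c replicate 2 or 4, 1 called lower without C57BL/6J replicate 1 and 3 called lower without C57BL/6J replicate 2. With 4930447C04Rik, whose exons overlap those of Six6 on the other strand, added, the log2 ratio of means of Six6 was -0.68, so its direction is uncertain. Thrb, which specifies medium-wavelength cones, was at 324, 999 and 491 CPM against 549, 724 and 789.8 CPM and did not pass, its C57BL/6J values spanning the BALB/c range.

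Of 43 ribbon synapse genes, 3 were called higher, a share near the 7.39% of all genes tested, and 8 lower. Unc13b, a vesicle priming factor, was at 242, 339.7 and 335 CPM against 105, 126 and 164 CPM (log2 difference 1.23 ± 0.17 SE, adjusted p = 0.000247), and Stx3, the syntaxin of ribbon terminals, rose by 0.64. The lower members included Rims1, an active zone scaffold, at 9.62, 0 and 0.278 CPM against 17.9, 48.1 and 89.6 CPM. Syn1, a synapsin of conventional terminals, was at 31.4, 30.8 and 29.8 CPM against 61.7, 73.7 and 84 CPM (-1.26 ± 0.15). Of 28 channels and pumps, 3 were called higher and 7 lower, beside 7.39% and 9.12% of all genes tested. Kcnv2, a potassium channel subunit of photoreceptors, fell by 0.58 on the log2 scale. The calcium-activated potassium channel Kcnma1 (-0.82 ± 0.15) and the calcium pump Atp2b1 (-0.73 ± 0.15) were lower. For the synapse list, the counts were 5 called higher without C57BL/6J replicate 1 or 2 and 4 called lower without C57BL/6J replicate 3. For the channels, the counts were 1 called higher without BALB/c replicate 2 or 6 or C57BL/6J replicate 1, 5 called higher without C57BL/6J replicate 2, 3 called lower without C57BL/6J replicate 3 and 4 called lower without BALB/c replicate 1 or 2.

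Glycolysis was the list with the most higher members, 14 of 27 gene records against 2 lower (Aldoa has 2 records), with a median log2 difference of 0.42. Slc2a1, the glucose transporter GLUT1, was at 164, 122 and 119.7 CPM in C57BL/6J and 52, 68.4 and 86.7 CPM in BALB/c (log2 difference 0.98 ± 0.16 SE, adjusted p = 0.000952). Hk2, the hexokinase, was at 579, 633 and 886 CPM against 170.3, 325 and 416 CPM (log2 difference 1.18 ± 0.22 SE, adjusted p = 0.00237), and all 3 C57BL/6J libraries were above the 6 others. Of the phosphofructokinase genes, Pfkl (1.15 ± 0.13) and Pfkp (1.10 ± 0.17) rose and Pfkm did not pass (log2 difference -0.33 ± 0.17 SE, adjusted p = 0.195). Also higher were the aldolase Aldoc (1.05 ± 0.17), the enolase Eno1 (0.99 ± 0.12), the pyruvate kinase Pkm (0.46 ± 0.12) and the lactate dehydrogenase Ldha (0.42 ± 0.12). The closest copy of Eno1, Eno1b (99.5% identical over 1736 bases), was called lower (log2 difference -1.25), so the value of Eno1 is uncertain, and with this copy added its log2 ratio of means was 0.81. The 2 lower members, a share under the 9.12% of all genes, were Eno2 and Hk1. Eno2, neuronal enolase, was at 527, 769 and 738 CPM against 823, 1037 and 1214 CPM (log2 difference -0.60 ± 0.17 SE, adjusted p = 0.0253), and Hk1, another hexokinase, fell (log2 difference -0.39 ± 0.12 SE, adjusted p = 0.0479). For this list, the counts were 0 called lower without BALB/c replicate 1 or 3 or C57BL/6J replicate 3 and 1 called lower without BALB/c replicate 2 or 4 or 5 or 6 or C57BL/6J replicate 1. Between 10 and 14 members were called higher as each library was left out. Ldhb, the lactate dehydrogenase subunit of oxidative tissues, did not pass (log2 difference 0.13 ± 0.22 SE, adjusted p = 0.738).

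Of 8 genes of the mitochondrial genome tested, 3 were called higher and 1 lower, and 2 to 4 were called higher as each library was left out. Among the higher calls, mt-Nd3 had a log2 ratio of means of -0.59 when its copy Gm28438 was added, and 2 of 7 genes were called higher with at least 10 counts asked in every library. For the single lower call, the counts were 0 called lower without BALB/c replicate 1 or 2 or 3 or 6 or C57BL/6J replicate 2 or 3 and 2 called lower without C57BL/6J replicate 1. In the citric acid cycle and pyruvate list 3 of 40 were called higher and 0 lower, among them Pdk3, a kinase that inhibits pyruvate dehydrogenase (0.62 ± 0.14), and Idh3b (0.45 ± 0.12). In this list, the counts were 1 called higher without C57BL/6J replicate 3 and 1 called lower without C57BL/6J replicate 2. Of 79 nuclear genes of oxidative phosphorylation, 6 were called higher and 1 lower, and 66 had a positive log2 difference. In both lists the share called higher was near the 7.39% of all genes tested, and the share called lower was under the 9.12% of all genes. For these nuclear genes, the counts were 2 called higher without C57BL/6J replicate 3, 3 called higher without BALB/c replicate 3 or 4 or 5, 13 called higher without C57BL/6J replicate 2, 0 called lower without BALB/c replicate 1 or 2 or C57BL/6J replicate 1 or 2 and 2 called lower without C57BL/6J replicate 3.

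The list of the unfolded protein and integrated stress responses had 18 of 46 gene records called lower in C57BL/6J and 0 higher (Ddit3 has 2 records), with a median log2 difference of -0.49. Under the integrated stress response, amino acid shortage or misfolded protein leads to phosphorylation of eIF2 and translation of the factor ATF4, which switches on genes of amino acid uptake and synthesis. Of 22 members of that arm 13 were called lower, and of 24 members of the unfolded protein arm 5. Chac1 (chr2:119351229-119354381), which degrades glutathione, was at 0, 0.366 and 2.23 CPM in C57BL/6J and 58.2, 71.2 and 79.8 CPM in BALB/c (log2 difference -6.09 ± 0.43 SE, adjusted p = 1.11e-06). Its C57BL/6J levels were near the detection limit, and its BALB/c libraries differed from each other by 1.37 times at most.

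The integrated stress arm holds several enzymes of serine and one-carbon metabolism. Phgdh, the first enzyme of serine synthesis, had 6 counts in all in the C57BL/6J libraries and was at 14.3, 24.3 and 31.4 CPM in BALB/c, a ratio of 34.6 times (95% exact interval 15.8 to 95). It has near-identical copies in 11 genes, the closest being Gm7901 (98.7% over 1597 bases). Their part was not tested, so the ratio of Phgdh is uncertain. Psat1, the next enzyme, was at 19.97, 16.1 and 21.7 CPM against 54.8, 64.4 and 81.5 CPM (log2 difference -1.78 ± 0.19 SE, adjusted p = 3.75e-05). Shmt2, the mitochondrial serine hydroxymethyltransferase, was at 31.1, 13.9 and 26.2 CPM against 107, 125 and 159 CPM (log2 difference -2.42 ± 0.22 SE, adjusted p = 1.13e-05). None of the 3 genes overlapped between the groups, and Mthfd2, which acts after Shmt2, fell by 1.78 on the log2 scale.

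Another member of the arm, Asns, asparagine synthetase, was at 48.4, 64.4 and 53.7 CPM against 136, 155 and 248 CPM (log2 difference -1.61 ± 0.20 SE, adjusted p = 0.000124). The transporter pair Slc7a5 (-2.42 ± 0.50) and Slc3a2 (-1.12 ± 0.14) was lower, and so was the cationic amino acid transporter Slc7a3, which is on no list and was at 5.92, 3.29 and 6.68 CPM against 42.3, 56.1 and 61.7 CPM (log2 difference -3.31 ± 0.26 SE, adjusted p = 2.31e-06). Trib3, a pseudokinase induced by ATF4, fell by 2.36, and Eif4ebp1, a brake on translation, by 2.87. Atf4 itself was at 224, 231 and 310.2 CPM against 365, 379.9 and 389 CPM (log2 difference -0.57 ± 0.13 SE, adjusted p = 0.00988), a small but complete separation. In the unfolded protein arm Herpud1 fell (-1.14 ± 0.19), while Hspa5 (-0.53 ± 0.19) and Xbp1 (-0.36 ± 0.17) did not pass. Psat1, Asns, Mthfd2, Slc3a2, Trib3, Atf4, Herpud1 and Slc7a3 here, and elsewhere Crx, Gnat2, Grk1, Pdc, Slc2a1, Eno1, Ldha, Pkm, Slc17a6 and Rbpms, were outside the rule on size and were named after their values were seen.

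Promoters of 3 of these genes are shown, from 250 bases before to 50 after the start (RefSeq, GRCm38.p6, written in the direction of transcription). All 3 hold the motif marked below, which most called list members with an entry did not, so they are not typical of the genes that fell. They lie at chr2:119350992-119351291, plus strand for Chac1, chr2:152344011-152344310, minus strand for Trib3 and chr6:7693160-7693459, minus strand for Asns. Capitals mark TGATGNAA, searched on both strands and as 1 motif with no overlap, a short form of the element that ATF4 binds.
Chac1: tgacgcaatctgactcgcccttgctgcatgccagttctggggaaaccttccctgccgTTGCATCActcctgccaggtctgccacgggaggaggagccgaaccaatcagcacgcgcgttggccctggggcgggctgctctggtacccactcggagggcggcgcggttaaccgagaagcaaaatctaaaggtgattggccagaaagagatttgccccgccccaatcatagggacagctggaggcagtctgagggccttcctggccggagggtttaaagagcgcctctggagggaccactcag
Trib3: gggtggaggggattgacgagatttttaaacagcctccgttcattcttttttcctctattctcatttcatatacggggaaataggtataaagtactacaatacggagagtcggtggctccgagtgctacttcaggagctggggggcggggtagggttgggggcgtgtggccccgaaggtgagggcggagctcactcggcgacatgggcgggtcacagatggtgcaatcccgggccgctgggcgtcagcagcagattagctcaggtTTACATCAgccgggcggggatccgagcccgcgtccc
Asns: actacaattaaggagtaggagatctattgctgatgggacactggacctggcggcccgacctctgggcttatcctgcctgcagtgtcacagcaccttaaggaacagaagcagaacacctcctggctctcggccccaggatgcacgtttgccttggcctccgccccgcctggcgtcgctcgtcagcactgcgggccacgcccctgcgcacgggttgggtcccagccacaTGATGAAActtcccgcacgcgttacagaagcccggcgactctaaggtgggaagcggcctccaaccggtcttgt
The letters occurred in the promoters of 5 of the 16 called list members with an entry (31.2%), which were Asns, Atf3, Chac1, Herpud1 and Trib3. They were also in 1 of 24 other tested members (4.17%). Over 9414 tested genes with an entry the share was 2.57%, and over all 32851 promoters searched 3.97%. Of the called records 13 were in the integrated stress arm and 5 in the unfolded protein arm, so called and other members differ in make-up. These shares are a description of letters and not of binding.

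Markers of ganglion cells were lower in C57BL/6J. Of 7 tested ganglion cell markers, 6 were called lower and 0 higher, and their sum was 505 to 1347 CPM in BALB/c against 126, 35.1 and 40.6 CPM in C57BL/6J, without overlap. Nefl, the light neurofilament of large axons, was at 46.2, 8.79 and 18.9 CPM against 216, 435 and 658 CPM (log2 difference -4.20 ± 0.48 SE, adjusted p = 6.16e-05). Its exons share bases with those of Nefm on the other strand, and counting ignored strand, so the neurofilament genes cannot be separated fully. Pou4f1, a ganglion cell transcription factor, was at 7.4, 0.366 and 4.18 CPM against 15.6, 37.9 and 53.8 CPM (log2 difference -3.19 ± 0.52 SE, adjusted p = 0.000993). Sncg (-4.65 ± 0.48), the glutamate transporter Slc17a6 (-2.62 ± 0.37) and Rbpms (-2.64 ± 0.55) were also lower, and Thy1 did not pass (log2 difference -2.08 ± 0.69 SE, adjusted p = 0.0558).

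Of 46 genes of neuronal differentiation and axon growth, 18 were called lower and 2 higher, with a median log2 difference of -0.78. Gap43, a growth cone protein, was at 2.59, 0.732 and 0.557 CPM against 11, 17.8 and 29.6 CPM, and Stmn2, a regulator of axonal microtubules, at 14.1, 4.76 and 0.835 CPM against 42.1, 66.1 and 95.7 CPM (log2 differences -3.80 ± 0.51 and -3.40 ± 0.52). Tubb2a (-3.19 ± 0.28) and Elavl4 (-3.30 ± 0.59) fell as well. The 2 higher members, a share under the 7.39% of all genes tested, were the adhesion molecules Ncam1 (0.68 ± 0.17) and Dscaml1 (1.04 ± 0.22). For this list, the count was 1 called higher without C57BL/6J replicate 2.

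Of 5 amacrine markers 3 were called lower and 0 higher. Gad1, which makes the transmitter GABA, was at 33.7, 1.1 and 24.8 CPM against 82.5, 112 and 155 CPM (log2 difference -2.49 ± 0.50 SE, adjusted p = 0.00424), and Gad2 (-1.84 ± 0.46) and Tfap2b (-1.69 ± 0.41) fell. The amacrine sums overlapped, at 269 to 372 CPM in BALB/c and 328, 155 and 113 CPM in C57BL/6J. Of the amacrine markers, the counts were 1 called higher without C57BL/6J replicate 3 and 1 called lower without C57BL/6J replicate 3. Calb2, calretinin of amacrine and ganglion cells, was at 11.5, 0.732 and 1.11 CPM against 99.8, 204 and 269 CPM (log2 difference -5.57 ± 0.57 SE, adjusted p = 2.38e-05). The calcium sensor Vsnl1 (-6.10 ± 0.53) and the nicotinic receptor subunit Chrnb3 (-4.13 ± 0.61) also fell. Within BALB/c, Nefl differed by 3.04 times between its lowest and highest library, and the amacrine sum by 1.38 times. Among stress genes, Chac1 differed by 1.37 times and Shmt2 by 1.49 times, and Asns ranged from 136 to 248 CPM. Spread within BALB/c thus overlapped between these groups of genes. The part of ganglion and amacrine RNA in the lower genes was not tested.

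**Figure D3:**
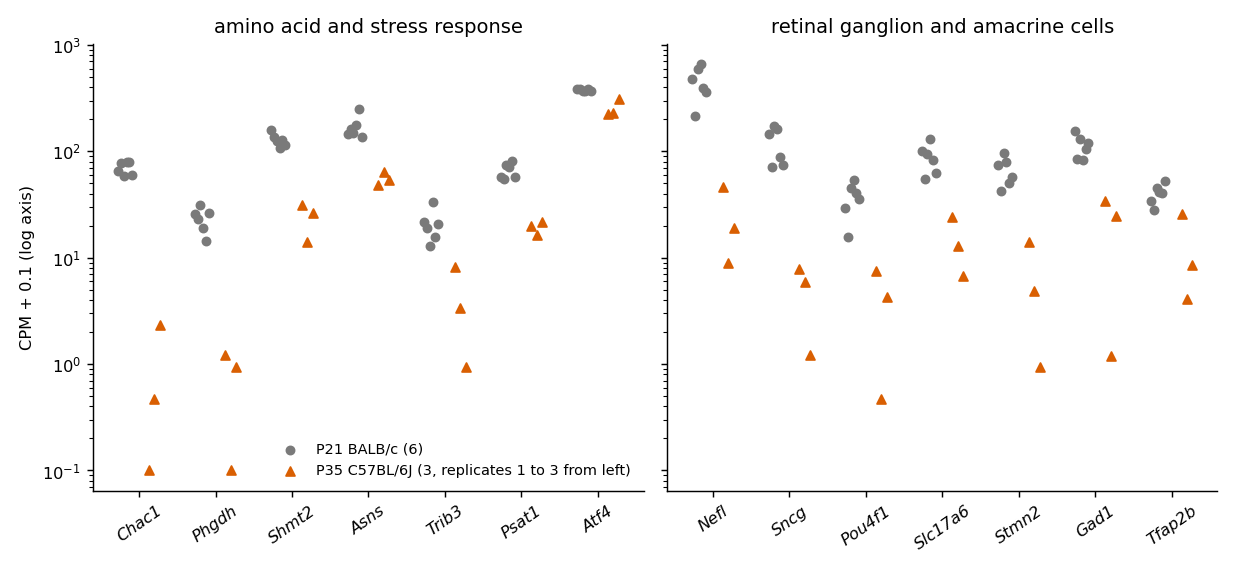
CPM plus 0.1 (log axis) of genes of the stress response (left) and of ganglion and amacrine cells (right) in each control library, grey circles for the 6 P21 BALB/c libraries and orange triangles for the 3 P35 C57BL/6J libraries. Chac1 lies between 58.2 and 79.8 CPM in BALB/c and under 3 CPM in C57BL/6J, and Nefl spreads from 216 to 658 CPM in BALB/c.

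Rod genes separated 1 C57BL/6J library from the others. Of 13 rod phototransduction genes 6 were called higher and 0 lower, and the CPM of 1 of the 13 did not overlap between the groups. Gnat1, rod transducin, was at 2686, 268 and 484 CPM in C57BL/6J and 319.8, 374 and 467 CPM in BALB/c (adjusted p = 0.0334). Replicate 1 lay far above the BALB/c range, replicate 3 just above it and replicate 2 below it. The 10 rod markers summed to 14613, 3444 and 4788 CPM in C57BL/6J and to between 3766 and 4803 CPM in BALB/c. Among rod genes, the counts were 1 called higher without C57BL/6J replicate 1, 2 called higher without BALB/c replicate 1 or 3 or 5 or 6, 3 called higher without BALB/c replicate 2 and 3 called lower without C57BL/6J replicate 1. DESeq2 called 2 of the 13 higher, robust estimation in edgeR 1 and limma voom with sample quality weights 1, whereas 9 were called higher with no filter on low counts. Pde6b (1.77 ± 0.54) and Cnga1 (2.17 ± 0.62) were likewise highest in replicate 1, and the rod factors Nrl and Nr2e3 did not pass.

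C57BL/6J replicate 1 also had the highest levels of some bipolar and Müller glia genes. Of 7 Müller glia markers tested, 2 were called higher and 1 lower, and for this list the counts were 0 called higher without C57BL/6J replicate 1 and 5 called higher without C57BL/6J replicate 2. Of 8 bipolar markers tested 1 was called higher and 0 lower, and of 2 horizontal cell markers 0 were called. For the bipolar markers, the counts were 0 called higher without BALB/c replicate 1 or 3 or 4 or 6 or C57BL/6J replicate 1, 3 called higher without C57BL/6J replicate 2 and 1 called lower without C57BL/6J replicate 1. For the horizontal markers, the count was 1 called lower without C57BL/6J replicate 1. Pcp2, of rod bipolar cells, was at 65.5, 3.29 and 17.5 CPM against 2.91, 6.91 and 10.4 CPM, and it shares exonic bases with Pet100 on the other strand. Rlbp1, a retinoid carrier of Müller glia, was at 131, 3.66 and 29.2 CPM against 1.82, 5.97 and 12.6 CPM, and Glul, glutamine synthetase, at 90.2, 15 and 24.2 CPM against 8.97, 11.2 and 17.9 CPM. Clu, clusterin, was lower in all 3 C57BL/6J libraries, at 461, 379.6 and 535 CPM against 752, 1004 and 1044 CPM (log2 difference -1.05 ± 0.15 SE, adjusted p = 0.000485).

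**Figure D4:**
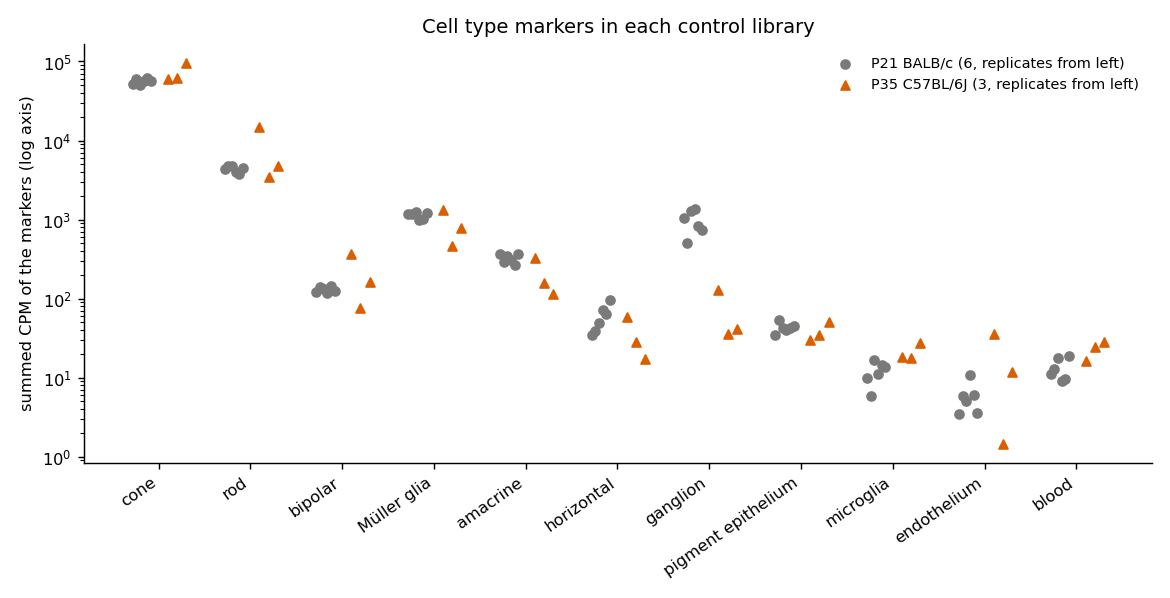
Summed CPM (log axis) of the markers of each retinal cell type in every control library, grey circles for P21 BALB/c and orange triangles for P35 C57BL/6J, replicates from left to right. C57BL/6J replicate 1 is the highest library for rod and bipolar markers, and all 3 C57BL/6J libraries are under the 6 BALB/c libraries for ganglion markers.

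Circadian genes were called in both directions, 5 higher and 4 lower of 26. Per2, a repressor of the clock, was at 19.6, 42.8 and 29 CPM in C57BL/6J and 4.62, 6.94 and 8.73 CPM in BALB/c (log2 difference 2.21 ± 0.29 SE, adjusted p = 0.000165). Per3 was at 287, 405 and 298 CPM against 93.2, 119 and 147 CPM (log2 difference 1.48 ± 0.15 SE, adjusted p = 2.84e-05), and the output factor Tef at 221, 229 and 223 CPM against 74.2, 86.1 and 91.2 CPM (log2 difference 1.40 ± 0.11 SE, adjusted p = 3.25e-06). None of the 3 overlapped. Bhlhe40, a light-induced repressor, was at 2.59, 0.732 and 1.95 CPM against 11, 15.8 and 23.8 CPM (log2 difference -3.20 ± 0.43 SE, adjusted p = 0.000234), and Drd4, a dopamine receptor whose photoreceptor transcript cycles daily, fell (-1.56 ± 0.27). The activators Arntl (0.16 ± 0.13) and Clock (-0.16 ± 0.21) did not pass. For the clock, the count was 2 called lower without C57BL/6J replicate 3. The labels give no time of day.

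Immediate early genes, which rise within minutes of stimulation or dissociation, were called lower in 6 of 20 and higher in 3. Junb was at 26.3, 22.7 and 29 CPM against 35.2, 63.9 and 130 CPM (log2 difference -1.43 ± 0.35 SE, adjusted p = 0.0142), and Ier2 (-1.88 ± 0.49) and Atf3 (-1.72 ± 0.39) fell. Fos was at 35.5, 18.3 and 47.6 CPM against 21, 87 and 347 CPM and Egr1 at 58.4, 61.5 and 157 CPM against 37.8, 286 and 871 CPM, with wide spread within BALB/c, and neither passed (adjusted p = 0.0632 and 0.0774). Among immediate early genes, the count was 3 called lower without C57BL/6J replicate 2. Dusp6, a phosphatase that ends ERK signalling, rose without overlap (28.5, 27.1 and 38.4 CPM against 5.82, 7.36 and 10.6 CPM).

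Of 18 interferon genes 8 were called lower and 1 higher, beside 9.12% and 7.39% of all genes tested. Gbp3, a guanylate-binding protein of pathogen defence, was at 0.37, 0 and 0.278 CPM against 9.34, 11.8 and 25.4 CPM, Usp18, a brake on interferon signalling, at 0.37, 1.1 and 0.557 CPM against 4.05, 6.4 and 25.4 CPM, and Irf3, the sensor pathway's factor, at 104, 86 and 96.3 CPM against 49.8, 60.2 and 65.2 CPM (log2 difference 0.72 ± 0.13 SE, adjusted p = 0.00224). Of interferon genes, the counts were 3 called lower without C57BL/6J replicate 3 and 5 called lower without C57BL/6J replicate 2. In place of 8, limma voom with sample quality weights called 1 member lower.

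Class I histocompatibility genes, whose alleles differ between these strains, had 3 of 22 members tested called higher and 5 lower, beside 7.39% and 9.12% of all genes tested. H2-Q10 had 0 counts in every C57BL/6J library and 10.3, 14.7 and 21.1 CPM in BALB/c, at least 15.3-fold lower against a floor of 3 counts per library. H2-T22 (-1.84 ± 0.29) and the peptide transporter Tap1 (-2.28 ± 0.49) were lower, and with its copy Gm15821 added the log2 ratio of means of Tap1 was -0.65. H2-Q6 (2.09 ± 0.28) and H2-T24, at 41.4, 47.6 and 29 CPM against 5.24, 9.27 and 12.1 CPM (log2 difference 2.13 ± 0.26 SE, adjusted p = 9.43e-05), were higher. H2-K1 and H2-D1, the classical genes, did not pass (log2 differences -0.31 and -0.10). H2-Q10, H2-T22, H2-Q6, H2-D1 and Tap1 have a copy of 95% identity or more over at least 100 bases, and no such copy was found for H2-K1 and H2-T24. All reads were aligned to a C57BL/6J genome, and the part of strain variants in these values was not tested. For the class I list, the count was 3 called lower without BALB/c replicate 1 or 5.

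A filter kept the called genes whose groups did not overlap and whose mean level over the 9 libraries was at or above the median of all genes tested (24.8 CPM). Among the 15 protein-coding genes that rose most under this filter were several outside the lists. Cep250, a centrosomal linker protein, was at 168, 253 and 233 CPM against 4.05, 6.35 and 14.5 CPM (log2 difference 4.82 ± 0.26 SE, adjusted p = 1.09e-07). Moxd1, a monooxygenase-like protein, was at 53.3, 70.3 and 71.8 CPM against 0.577, 5.57 and 6.72 CPM (log2 difference 3.66 ± 0.31 SE, adjusted p = 4.94e-06), and Arhgdib, an inhibitor of small GTPases, at 163, 175 and 346 CPM against 10.5, 12.9 and 17.9 CPM (log2 difference 4.06 ± 0.24 SE, adjusted p = 1.91e-07). All 3 separated the groups completely, and Arhgdib shares 136 exonic bases with the abundant cone gene Pde6h on the other strand. The polycomb protein Cbx7 (2.27 ± 0.25), the acid-sensing channel Asic3 (2.13 ± 0.23), Tsc22d1 (2.04 ± 0.20), Rgl2 (1.92 ± 0.22), Agr2 (1.91 ± 0.28), Abhd14a (2.49 ± 0.18), Pank4 (2.74 ± 0.41) and Gm4792 (3.05 ± 0.18) also rose. Samd11, a photoreceptor polycomb partner, was at 293, 44.3 and 49 CPM against 10.3, 15.4 and 17.9 CPM, with replicate 1 far above the other two. Several of these genes share exonic bases with a neighbour on the other strand, which counting without strand cannot separate: Srsf2 (2.91 ± 0.27) with Mettl23, Samd11 with Noc2l, Cep250 with 6430550D23Rik, and Abhd14a with Abhd14b. The same holds for Hopx with Hopxos, Rtkn2 with Gm16212, Six6 with 4930447C04Rik, Opn1sw with Calu and H2-T22 with A930015D03Rik.

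Among the 15 that fell most under the same filter, Hopx, a homeodomain-only protein, was at 1.11, 10.6 and 1.67 CPM against 282, 329 and 396 CPM (log2 difference -6.27 ± 0.45 SE, adjusted p = 1.26e-06), with its overlap with Hopxos given above. Rtkn2, a rhotekin, was at 0.37, 1.83 and 0.278 CPM against 54.1, 70.8 and 79.8 CPM (log2 difference -6.40 ± 0.36 SE, adjusted p = 1.38e-07), and Ednrb, the endothelin receptor, at 0.74, 2.93 and 3.06 CPM against 47.9, 60.02 and 87.9 CPM (log2 difference -4.76 ± 0.37 SE, adjusted p = 2.31e-06). None of the 3 overlapped between the groups, and Hopx in C57BL/6J replicate 2 was the highest of their C57BL/6J values. Sh2d6 (-5.16 ± 0.39), Tppp3 (-4.26 ± 0.47), Gm19410 (-4.42 ± 0.33) and Gm45861 (-4.14 ± 0.38) were among the 15 as well.

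Some genes were read in 1 group only. By the rule of at most 3 counts in every library of one group and at least 10 in every library of the other, 12 genes were found in C57BL/6J and 42 in BALB/c. Pttg1, securin (chr11:43420250-43426251), was at 88.8, 67.4 and 100.2 CPM in C57BL/6J and had 7 counts over the 6 BALB/c libraries, a ratio of 198 times (95% exact interval 95.8 to 495). Ccl27a, a chemokine with near-identical copies, was at 23.3, 17.2 and 17 CPM with 2 counts in BALB/c. In the other direction Sh2d2a, a T cell adaptor (chr3:87846755-87855722), was at 56.5, 70.5 and 90.02 CPM in BALB/c and had 0 counts in C57BL/6J, at least 71.9-fold lower against the same floor. Sox30, a germ cell factor, had 1 count in C57BL/6J and 18.8, 22.6 and 32.5 CPM in BALB/c. The intervals cover counting error only. The rule also held in the Txnip libraries for 8 of the 12 genes and for 11 of the 42. For 29 of the 42 the C57BL/6J Txnip libraries were at or under 3 counts, and the BALB/c Txnip libraries, with as few as 647712 counts in all, did not always reach 10.

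Most called pseudogenes were lower in C57BL/6J. Of 221 pseudogenes tested, 60 were called, 51 lower and 9 higher. BLAST matched 45 of the 51 to a tested protein-coding gene (identity of 95% or more, alignments of 100 bases or longer), and for 25 of these 45 the matched gene was called higher and for 5 lower. Some genes matched more than 1 pseudogene. Reads of BALB/c were aligned to a C57BL/6J genome, and the part of this in the pseudogene calls was not tested. Gm28438 on chromosome 1, which is 99.7% identical to mt-Nd3 over 345 bases, was at 17, 24.8 and 32 CPM in BALB/c, with 0 counts in every C57BL/6J library. The mitochondrial gene mt-Nd3, of complex I, was at 25.9, 9.52 and 13.9 CPM in C57BL/6J and had 1 count in BALB/c. Summed, the pair was at a mean of 24.7 CPM in BALB/c and 16.4 CPM in C57BL/6J.

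Gm13394, a copy of Gapdh, was at 108, 165 and 227 CPM in BALB/c and 0, 0.366 and 0.835 CPM in C57BL/6J. Gapdh, the glycolytic dehydrogenase, was not called (log2 difference 0.36 ± 0.23 SE, adjusted p = 0.328), and with its copy the log2 ratio of means was -0.14. For the proteasome subunit Psmb5 the log2 difference of 1.53 became 0.43 when its copy Gm3375 was added, for the ribosomal protein Rpl26 1.89 became 0.18 with Gm15772, and for the chaperone Hspa8 0.66 became 0.19 with Gm15459. The calls in the ribosome (6 higher, 2 lower of 81) and proteasome (5 higher, 0 lower of 44) lists include genes with such copies, and the ribosome share called higher was near that of all genes tested. For the ribosome, the count was 1 called lower without BALB/c replicate 1 or 3 or 6 or C57BL/6J replicate 1. For the proteasome, the counts were 3 called higher without C57BL/6J replicate 3, 8 called higher without C57BL/6J replicate 2 and 1 called lower without C57BL/6J replicate 2.

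**Figure D5:**
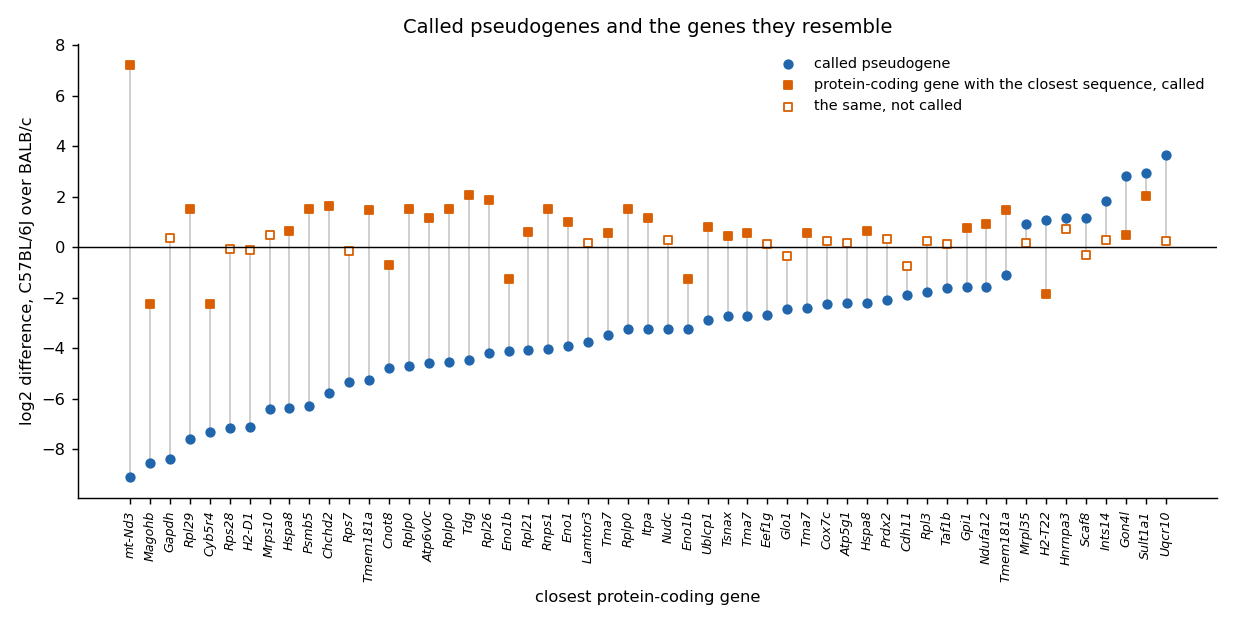
Log2 difference (C57BL/6J over BALB/c) of called pseudogenes (blue circles) and of the tested protein-coding gene each most resembles (orange squares, filled where called), joined by a line and ordered by the pseudogene. Most of the lower pseudogenes stand below a gene at or above 0, and for 25 of them the matched gene was called higher.

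Genes of other types led in each direction under the same filter. Gm37583 (3.38 ± 0.29), CT010445.1 (2.08 ± 0.21) and Gm42946 (1.73 ± 0.18) rose, and those that fell most were Gm13394 above and the overlapping pair Gm26825 and Gm15459 (-6.39 ± 0.31 and -6.38 ± 0.31), both like Hspa8. The median exonic length was 3905 bases among higher and 4479 among lower genes, against 4234 over all tested, and the median GC content 51.1% and 48.4%, against 49.2%. The part of length and GC content in the calls was not tested. Called genes made up 12.3% to 19.2% of the genes tested on each chromosome.

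The Txnip libraries of the same strains, days and runs served as the check of direction. There, 2447 of 13844 genes tested (17.7%) were called. With these libraries thinned to the smallest total of 647712 counts, 391 were called, with at least 10 counts asked in every library 1489, and with limma voom 4496, settings chosen for the Txnip libraries after the data were seen. Of the 2168 control calls that were tested there, 2123 (97.9%) had the same sign and 1388 were called with it, and 0 were called with the opposite sign. Among 10843 genes not called in control cones, 72.7% had the same sign. In a test of whether the difference itself changed with Txnip, edgeR called 0 of 14751 genes, and 706 had an unadjusted p under 0.05. Pde6c differed by 2.44, Chac1 by -5.81, Per2 by 1.54 and Nefl by -3.83 on the log2 scale. These libraries share strain, day and run with the controls, so they do not separate the 3.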

How the data were processed

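Papain-dissociated retinas were sorted for cones, and a modified Smart-Seq2 protocol made the libraries. Per the labels and the file headers, the authors aligned reads with STAR to GRCm38.p6, a genome of C57BL/6J, and counted them per gene with featureCounts 1.6.2 on Ensembl release 94, without strand and with reads assigned to every overlapping gene. The deposited counts, 1 file per library, were used as they are. The authors' own tables, which hold fold changes and p-values of Txnip against control within a strain, were not used.

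Genes with low counts were left out with edgeR's default filter, and the control groups were compared in edgeR 4.0.16 (TMM scaling, quasi-likelihood F test, adjusted p under 0.05). SE is that of the log2 difference. The same fit was made on the Txnip libraries. DESeq2 1.42.0, limma 3.58.1 voom and other settings were alternatives, and the procedure was tested on simulated data. Copies of genes were found with BLAST 2.17.0. The members and gene lists were chosen with earlier results of these data known. Text names up to 15 separated protein-coding genes and 3 of other types per direction, at or above the median level of all genes tested, up to 4 called members per list and direction, members that define a list, and up to 8 genes per direction with at most 3 counts in every library of one group and at least 10 in every library of the other; further ones are given as such. Pairs of replicates differed by more than sampling noise (lowest chi-square per degree of freedom 3.24 over 18 pairs). A few genes are not reported here. Depth limits low genes, and floors and intervals cover counting error only.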

Additional observations from a re-analysis of the deposited data

Results flagged for a closer look

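In 12 of 166 values looked at over the 6 BALB/c control libraries, 1 library lay far from the others, by a gap to its nearest neighbour divided by the whole range above 0.625. Chance gives about 1 in 20 such groups. Moxd1 was lowest in replicate 2, at 0.577 CPM against 4.66 to 6.72 CPM in the others (ratio 0.664). Pde6b was lowest in replicate 1, at 112 CPM against 149 to 166 CPM in the others (ratio 0.683). Dusp6 was highest in replicate 3, at 10.6 CPM against 5.82 to 7.6 CPM in the others (ratio 0.63). Usp18 was highest in replicate 2, at 25.4 CPM against 4.05 to 9.42 CPM in the others (ratio 0.748). mt-Nd3 was highest in replicate 3, at 0.506 CPM with the others at 0 (ratio 1). Rpl26 was highest in replicate 3, at 18.2 CPM against 10.5 to 13.4 CPM in the others (ratio 0.629). Psmb5 was highest in replicate 2, at 54.8 CPM against 35.4 to 42.6 CPM in the others (ratio 0.631). Elavl4 was highest in replicate 3, at 15.7 CPM against 12.1 to 12.8 CPM in the others (ratio 0.818). Cngb3 was highest in replicate 5, at 371 CPM against 273 to 298 CPM in the others (ratio 0.748). H2-K1 was highest in replicate 2, at 126 CPM against 59.2 to 77.2 CPM in the others (ratio 0.729). Asns was highest in replicate 5, at 248 CPM against 136 to 177 CPM in the others (ratio 0.636). The summed CPM of endothelium markers was highest in replicate 4, at 10.8 CPM against 3.49 to 6.08 CPM in the others (ratio 0.644). The mt-Nd3 value is 1 count in 1 library.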

How the results depend on the processing

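The count of 2189 genes stayed within 1.5 times under DESeq2 (2282), its size factors (2200), no filter (2806), at least 10 counts in every library (1548), thinned libraries (1760), limma voom with quality weights (1662), the rod share as a covariate (2606) and 1 fit of all 4 groups (2588). Of the lower genes, 1209 became 790 with at least 10 counts in every library and 805 with voom. With voom 857 genes were higher, so the excess of lower calls turned round. Asking also for an absolute log2 difference over 1 left 1198 genes, 397 higher and 801 lower. Leaving out each library in turn gave 1376 to 2530 genes, 596 to 1189 higher and 780 to 1382 lower, the fewest without C57BL/6J replicate 3, and 1780 to 3365 in the Txnip libraries. In the Txnip libraries, 2447 genes became 391 when thinned, 1489 with at least 10 counts in every library and 4496 with voom, settings chosen after seeing the data, and the cause was not tested. With the replicate number as a block, 698 genes were called, 217 higher and 481 lower, and 711 in the Txnip libraries. The labels share only numbers, deviations of same-numbered libraries correlated at -0.051 to 0.128 over 3 pairs, and the block is not read as a pairing. Of 134 called genes named, 98 kept their call in every alternative in which they had a value, the block left out (87 had one with at least 10 counts in every library), and 2 changed sign. Differences near 0 or resting on 1 library changed sign, and the cause was not tested. On the log2 scale, Gnb3 had -0.0058 with at least 10 counts in every library, -0.032 with replicate block, and Nrl had -0.034 with log2 rod share as a covariate, and Nr2e3 had -0.54 with log2 rod share as a covariate. Leaving out each library, the ranges were Pde6b -0.27 to 2.27, Cnga1 -0.085 to 2.69, Opn1sw -0.31 to 0.31, Gnb3 -0.058 to 0.11, Cngb3 -0.15 to 0.32, Thrb -0.76 to 0.099, Nrl -0.42 to 2.21, Nr2e3 -0.87 to 1.63 and H2-D1 -0.33 to 0.040; those of Pde6b and Cnga1 were negative without C57BL/6J replicate 1.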

Other observations

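Other gene groups held smaller or mixed changes. Of 52 genes of chromatin and DNA methylation, 12 were called higher and 5 lower in C57BL/6J, the lower share near the 9.12% of all genes tested. With libraries thinned to the smallest total, 7 were called higher and 2 lower. Kdm1a, a histone demethylase, was at 35.5, 24.5 and 32.9 CPM in C57BL/6J and 9.89, 12.7 and 15.6 CPM in BALB/c (log2 difference 1.29 ± 0.21 SE, adjusted p = 0.0011), and the deacetylase Hdac4 differed by 1.31 ± 0.25. For this list, the counts were 7 called higher without C57BL/6J replicate 3, 2 called lower without C57BL/6J replicate 3, 3 called lower without BALB/c replicate 1 or 3 and 8 called lower without C57BL/6J replicate 2. Of 50 antioxidant genes 4 were called higher and 6 lower, beside 7.39% and 9.12% of all genes tested. Nxnl1, which encodes the rod-derived cone viability factor, was at 307, 238 and 247 CPM against 343, 411 and 486 CPM (log2 difference -0.64 ± 0.15 SE, adjusted p = 0.0125), and Hmox1, haem oxygenase, at 0.37, 0 and 0.278 CPM against 1.79, 6.28 and 12.2 CPM (log2 difference -4.60 ± 0.85 SE, adjusted p = 0.00229). For this list, the count was 7 called higher without C57BL/6J replicate 2.

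Of 35 genes of AMPK and insulin signalling 7 were called higher and 3 lower, the lower share near the 9.12% of all genes tested. With libraries thinned to the smallest total, 4 of 34 were called higher and 3 lower. Stk11, the kinase LKB1 upstream of AMPK, differed by 1.53 ± 0.26 and the insulin-like growth factor receptor Igf1r by 0.84 ± 0.21 on the log2 scale. For this list, the counts were 3 called higher without C57BL/6J replicate 3 and 4 called higher without BALB/c replicate 2. Of 13 glucocorticoid targets 2 were called higher and 3 lower. Fkbp5, a co-chaperone of the receptor, was at 20.7, 16.1 and 38.1 CPM against 2.24, 8.59 and 15.7 CPM (log2 difference 1.57 ± 0.42 SE, adjusted p = 0.0211). For this list, the count was 1 called higher without C57BL/6J replicate 1 or 3. Of 27 sterol synthesis genes 0 were called higher and 1 lower, both under the shares of all genes tested. Hmgcs1, an early enzyme of that pathway, was at 76.6, 76.1 and 72.4 CPM against 103, 123 and 150.2 CPM (log2 difference -0.73 ± 0.15 SE, adjusted p = 0.00571). For the sterol genes, the counts were 1 called higher without C57BL/6J replicate 2 and 2 called lower without C57BL/6J replicate 1 or 2.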
